A study of Gallus gallus with 54 samples.

Results

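The estrogen receptors ESR1 and ESR2 and the progesterone receptor PGR were followed through the 2 cell layers of the growing chicken follicle, across 3 follicle stages and 3 treatments. The members were taken by name, as the genes called ESR1, ESR2 and PGR in the annotation of the deposited files, and each of the 3 matched a single locus among the 26624 genes of the count table. RNA was sequenced from theca cells (TCs) and granulosa cells (GCs) of syf 6 mm follicles (6 mm below), which precede follicle selection, of F5 follicles, which have recently entered the preovulatory hierarchy, and of F1 follicles, the next to ovulate. The hens, White Leghorns 35 to 40 weeks old, were fed 15 mg of bicalutamide (bic), an antiandrogen, 100 mg of mestanolone (mes), an androgenic steroid, or, as the blank control (NC), water. The drugs were given for 4 days, and the follicles were taken 1 day after the last dose. Only polyadenylated RNA was sequenced.

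All 3 genes encode nuclear receptors, proteins that bind a steroid inside the cell and then act on DNA as transcription factors. ESR1 and ESR2 bind estradiol, and in many tissues estradiol acting through ESR1 raises PGR transcription. PGR binds progesterone, and in mammals its transcription in granulosa cells is switched on by the surge of luteinizing hormone (LH) that precedes ovulation. In the hen follicle the theca makes most of the estrogen and the granulosa of the largest follicles makes most of the progesterone, so the layer in which each receptor is transcribed bears on which cells could respond to which steroid.

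Each layer, stage and treatment had 3 libraries, 54 in 18 groups, and they held 33513156 to 65054906 counts with a median of 46896540. Libraries that carry 1 hen number and 1 library number were summed, because their counts differed by little more than sampling noise. The F1 GCs are therefore 1 sample of 1 hen for bic and 2 samples for NC, the F1 TCs of bic are 2 samples, and every other group is 3, which gives 50 samples, 26 of TCs and 24 of GCs. In hens with more preovulatory follicles than the usual hierarchy after the drugs, the follicles left over once it was labelled were also labelled F1. This limits the F1 groups as a stage. The layers were checked by marker genes. A list of 10 theca genes averaged 936 to 1243 FPKM in TCs and 1.18 to 20.3 FPKM in the 22 GC libraries that did not stand apart. A set of 8 libraries, 5 of GCs and 3 of TCs, stood apart. Theca genes averaged 294 and 214 FPKM in NC 6 mm GC replicates 1 and 3, 214 FPKM in bic 6 mm GC replicate 1 and 1064 FPKM in bic F5 GC replicate 2, where the 6 granulosa genes averaged only 41.7 FPKM. Granulosa genes averaged 609, 614 and 1238 FPKM in bic F5 TC replicate 1, NC F5 TC replicate 3 and NC F1 TC replicate 1, against 56.3 to 355 FPKM in the other TCs. They averaged 1639 FPKM in bic 6 mm GC replicate 2, against 467 and 500 FPKM in its group. In that library the 6 oocyte genes averaged 0.547 FPKM, against 32.8 and 44.7 FPKM in its group, while erythrocyte genes were at 33.7 FPKM against 0.785 and 0.187 FPKM, leukocyte genes at 91.1 FPKM against 39.1 and 4.54 FPKM, and oviduct genes at 58.6 FPKM against 13.9 and 0.325 FPKM. The erythrocyte and oviduct lists hold only 2 genes each. At least 1 of the 2 erythrocyte genes was at 0 in every library, so each erythrocyte mean rests on no more than 1 gene. Results that rest on the 8 libraries that stood apart are given with and without them, an alternative chosen after seeing the data. The libraries were set apart by markers of the layers, so a wider difference between layers without them is no separate support.

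Levels are given as FPKM, fragments scaled by transcript length and by library depth, summed over the transcripts of a gene, so they may be compared between genes. A gene was called where the quasi-likelihood F test of edgeR gave it an adjusted p (Benjamini-Hochberg, over all genes of the comparison) no higher than 0.05 and a compared group averaged at least 1 FPKM. Log2 fold changes are from the counts and are followed by a standard error. It was derived from the F test, as the absolute log2 fold change over the square root of F. It is therefore approximate, above all for folds against counts near 0. Where a group was a single sample, the spread came from the other groups of the comparison and the lone sample was assumed to vary like them, so such a call compares that sample with the others and does not measure the spread of its group. In bulk RNA a lower level can stand for fewer cells that transcribe the gene or for less RNA per cell, and these cannot be told apart.

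In Gallus_gallus-5.0, ESR1 (gene6428) lies on chromosome 3 from 49136172 to 49309827 and is annotated with 2 transcripts. The longer one has 9 exons and 9941 bases, of which 8267 belong to the last exon, from 49301561 to 49309827. The shorter one has 8 exons and 2081 bases, and 6 exons of 1101 bases are common to both. ESR2 (gene10341) lies on chromosome 5 from 53079224 to 53120956, with 1 transcript of 9 exons and 3521 bases. PGR (gene2715) lies on chromosome 1 from 183242907 to 183281319, with 1 transcript of 8 exons and 4825 bases. All are on the plus strand. PGR overlaps LOC107052382 on the minus strand, which was at 0 to 0.211 FPKM in the 54 libraries.

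TCs held PGR at a high and even level, and it was their most abundant steroid receptor of the 3 in every library. PGR ran from 19.2 to 46.4 FPKM in TCs with a median of 27.4, against 0 to 74.8 FPKM in GCs with a median of 0.112. PGR exceeded ESR1 in 27 of 27 TC libraries and in 9 of 27 GC libraries. ESR1 ran from 0.739 to 5.36 FPKM in TCs and from 0.135 to 25.1 FPKM in GCs, and ESR2 from 0.596 to 12.7 FPKM in TCs and from 0.159 to 3.90 FPKM in GCs. GCs thus covered a far wider range of ESR1 and PGR than TCs, at both ends.

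**Figure D1:**
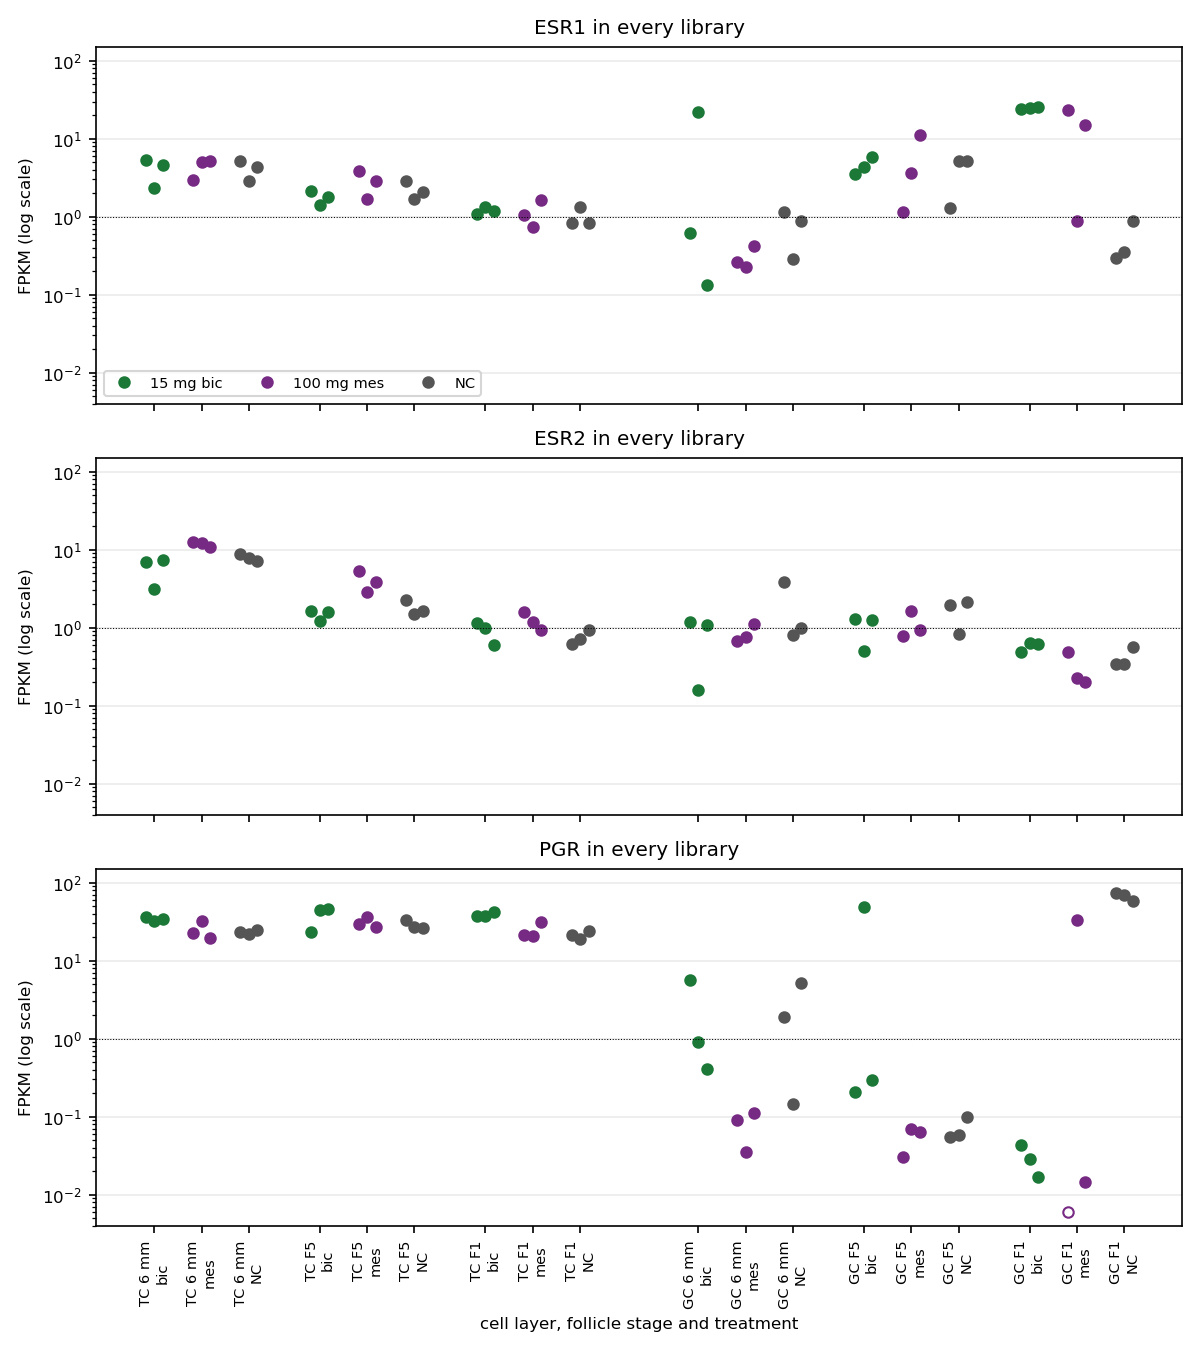
FPKM of ESR1, ESR2 and PGR in every library on a log scale, by cell layer, follicle stage and treatment, with 1 point per library in replicate order. The dotted line marks 1 FPKM and an open point stands for a level of 0. PGR stays between 19.2 and 46.4 FPKM in every TC library, while GC libraries range from 0 to 74.8 FPKM.

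Among the 18 group means, PGR was highest in NC F1 GCs, at 65.1 ± 9.97 FPKM (SD, n = 2), and the next 9 places were all held by TC groups. These TC means ran from 40.1 ± 3.29 FPKM in bic F1 TCs (n = 2) down to 21.6 ± 2.39 FPKM in NC F1 TCs (n = 3), and most neighbours in that order overlapped within their SD. The lowest mean was 0.0296 FPKM in bic F1 GCs, from 1 hen. ESR1 was highest in bic F1 GCs, at 24.7 FPKM, followed by mes F1 GCs at 13.2 ± 11.5 FPKM and bic 6 mm GCs at 7.67 ± 12.6 FPKM (n = 3 each), whose SDs are as large as their means. It was lowest in mes 6 mm GCs, at 0.306 ± 0.106 FPKM (n = 3). For ESR2 the 4 highest means were all in TCs. They were 11.9 ± 1.05 FPKM in mes 6 mm TCs, 7.99 ± 0.831 FPKM in NC 6 mm TCs, 5.86 ± 2.40 FPKM in bic 6 mm TCs and 4.02 ± 1.27 FPKM in mes F5 TCs (n = 3 each).

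The first question was in which layer each receptor was higher. In NC follicles, PGR was called in 2 of 3 stages and in opposite directions, while neither ESR1 nor ESR2 was called at any stage. Among all genes tested, 27.0%, 36.0% and 37.0% were called between NC layers at 6 mm, F5 and F1. At F5, NC TCs had 33.6, 27.4 and 26.4 FPKM of PGR, against 0.0547, 0.0578 and 0.0994 FPKM in NC GCs. The groups were far apart, with a log2 fold change of 8.62 ± 0.30 and an edgeR adjusted p of 5.06e-05. At F1 the order was the other way round. NC TCs had 21.6, 19.2 and 24.0 FPKM, against 74.8, 69.6 and 58.1 FPKM in NC GCs, where the first 2 GC libraries are from 1 hen. Every GC value lay above every TC value, with a log2 fold change of -2.0 ± 0.23 and an edgeR adjusted p of 0.00680. The call was kept without NC F1 TC replicate 1, at -2.11 (adjusted p 0.00642), and was lost when all 50 samples shared a single estimate of the spread, at -2.04 (adjusted p 0.303). Theca genes averaged 14.8, 13.5 and 5.19 FPKM in those 3 GC libraries, against 936 to 1232 FPKM in the matching TCs. PGR was higher in each of these GC libraries than in any TC library of the series.

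At 6 mm, NC TCs had 23.3, 21.9 and 25.0 FPKM of PGR, against 1.90, 0.147 and 5.20 FPKM in NC GCs. The values did not overlap, and the log2 fold change of 3.30 ± 1.07 was not called (adjusted p 0.0627). The 2 GC libraries with the higher PGR were the ones that stood apart for theca genes, at 294 and 214 FPKM against 15.8 FPKM in replicate 2. Without them the difference was 7.38, with 1 GC sample left, and it was called without replicate 2, at 2.75 (adjusted p 0.00743). PGR is itself high in every TC library. Leaving out GC libraries by their theca genes took out those with more PGR here, so the wider difference is no separate support. ESR2 showed the same layer. NC 6 mm TCs had 8.89, 7.85 and 7.24 FPKM of ESR2, against 3.90, 0.806 and 0.982 FPKM in NC 6 mm GCs. Its log2 fold change of 2.05 ± 0.68 was not called (adjusted p 0.0658), and it was 3.38 without the libraries that stood apart (adjusted p 0.00140, 3 TC samples against 1 GC sample) and 3.21 without replicate 1 alone (adjusted p 0.00566). At F5 and F1 the ESR2 levels of the NC layers lay close together when counted over the whole gene. The log2 fold changes were 0.11 ± 0.42 and 0.35 ± 0.43 (adjusted p 0.855 and 0.536). Exons 1 to 4, weighted by length, were apart, at 0.542 to 1.296 FPKM in F5 TCs against 0 to 0.155 FPKM in F5 GCs. At F1 they were at 0.293 to 0.961 FPKM in TCs against 0 to 0.107 FPKM in GCs. The levels of exons 5 to 9 overlapped between layers at both stages, and neither part was tested on its own.

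In drug-fed hens PGR was higher in TCs than in GCs in 3 of 6 comparisons and was not called in the others. In mes follicles at 6 mm, TCs had 22.7, 32.7 and 19.2 FPKM of PGR, against 0.0895, 0.0350 and 0.112 FPKM in GCs, a log2 fold change of 8.33 ± 0.45 (adjusted p 3.73e-05). At F5 the difference in mes follicles was 8.98 ± 0.35 (adjusted p 2.75e-05), with 29.2, 36.1 and 27.2 FPKM in TCs and 0.0302, 0.0702 and 0.0641 FPKM in GCs. At F1 they overlapped, with 21.1, 20.8 and 31.7 FPKM in mes TCs against 0, 33.3 and 0.0147 FPKM in mes GCs (0.89 ± 2.33, adjusted p 0.786). Without GC replicate 2 the difference was 11.37 and was called (adjusted p 2.82e-04). That library is singled out by the PGR level under test, so this call is only a description. Of all genes, 47.1%, 46.8% and 37.6% were called between mes layers at 6 mm, F5 and F1. In bic follicles at 6 mm and F5, few genes were called at all, 2.66% and 0.012%, and none of the receptors was. PGR differed there by 3.90 ± 1.01 and 1.39 ± 1.91 (adjusted p 0.0825 and 0.698). The 6 mm GCs had 5.62, 0.908 and 0.405 FPKM, and without replicate 1, the library with the theca genes, the 6 mm difference was 5.52 and was called (adjusted p 0.0197). The F5 GCs had 0.207, 48.9 and 0.299 FPKM, and the 48.9 FPKM belongs to replicate 2, whose theca genes are at the level of a TC library. Without it the F5 difference was 7.18 and was called (adjusted p 0.00112). The bic libraries left out here were set apart by theca genes, and PGR is high in every TC library. Their removal thus takes out the GC libraries with the most PGR, and the calls are no separate support.

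ESR2 was higher in TCs than in GCs at all 3 stages of mes follicles. At 6 mm TCs had 12.7, 12.3 and 10.7 FPKM of ESR2, against 0.675, 0.759 and 1.13 FPKM in GCs, a log2 fold change of 3.87 ± 0.24 (adjusted p 5.10e-05). At F5 TCs had 5.38, 2.85 and 3.83 FPKM, against 0.774, 1.65 and 0.932 FPKM in GCs (1.77 ± 0.39, adjusted p 0.00863). At F1 both layers were lower and still apart, with 1.61, 1.19 and 0.945 FPKM in TCs against 0.494, 0.225 and 0.203 FPKM in GCs (1.90 ± 0.46, adjusted p 0.0187). The F1 call was lost without mes F1 GC replicate 3 (1.68, adjusted p 0.0512), TC replicate 1 (1.69, 0.0761) or TC replicate 2 (1.92, 0.0600). In bic follicles ESR2 differed by 2.90 ± 0.75 at 6 mm, which was not called (adjusted p 0.0824), and was 2.54 without the libraries that stood apart (adjusted p 0.0463, 3 TC samples against 1 GC sample). Without bic 6 mm GC replicate 2 alone it was 2.47 (adjusted p 0.0264).

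In mes follicles ESR1 was higher in TCs at 6 mm and higher in GCs at F1, a contrast between stages that was not tested itself. In mes follicles at 6 mm, TCs had 2.99, 5.07 and 5.17 FPKM of ESR1, against 0.261, 0.229 and 0.426 FPKM in GCs, and the log2 fold change was 4.21 ± 0.79 (adjusted p 0.00435). At F1 the direction was the other way, with 1.05, 0.739 and 1.62 FPKM in TCs against 23.6, 0.880 and 15.1 FPKM in GCs and a log2 fold change of -4.59 ± 1.37 (adjusted p 0.0369). This call rests on every library but mes F1 GC replicate 2, the low one. It was lost without either other GC library or without any of the TC libraries (adjusted p 0.0765 to 0.127), and also when hens were paired across layers (-3.66, adjusted p 0.172). In bic follicles at F1, TCs had 1.08, 1.32 and 1.17 FPKM, against 24.1, 24.8 and 25.1 FPKM in 3 GC libraries of 1 hen, a log2 fold change of -5.38 ± 0.44 (adjusted p 0.00320, 2 samples against 1). The spread between bic hens in F1 GCs was not measured, so this sets the 2 TC samples against 1 hen. PGR in the same F1 libraries went the opposite way, with 37.8, 37.9 and 42.5 FPKM in TCs against 0.0435, 0.0286 and 0.0168 FPKM in GCs, a log2 fold change of 10.08 ± 0.26 (adjusted p 8.55e-04), where 37.8% of all genes were called. With 1 GC sample, the layers of bic hens at F1 could not be compared beyond this hen. At F5, ESR1 was not called between layers under any treatment, with log2 fold changes of -0.84 in NC, -1.74 in bic and -0.80 in mes follicles. It was called in NC follicles without NC F5 GC replicate 1 (-1.26, adjusted p 0.0212) and in bic follicles without bic F5 GC replicate 2 (-1.45, adjusted p 0.0241).

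A single library set the direction of ESR1 in bic follicles at 6 mm. TCs had 5.36, 2.31 and 4.58 FPKM, against 0.621, 22.3 and 0.135 FPKM in GCs, and the log2 fold change of -2.67 ± 1.93 was not called (adjusted p 0.407). The 22.3 FPKM belongs to bic 6 mm GC replicate 2, the library with granulosa genes at 1639 FPKM. The same library held few oocyte transcripts and more of the erythrocyte, leukocyte and oviduct genes than its group, as given above. Its granulosa genes lay between those of NC F5 GCs (1247 to 1451 FPKM) and bic F1 GCs (1807 to 2208 FPKM). Its oocyte genes lay within the range of NC F5 GCs (0.0341 to 0.741 FPKM), and its ESR1 near that of bic F1 GCs (24.1 to 25.1 FPKM). Other markers differed from both of these groups. Its theca genes, at 19.6 FPKM, lay near those of replicate 3 of its own group (20.3 FPKM). They lay above NC F5 GCs (1.18 to 2.12 FPKM) and bic F1 GCs (1.40 to 1.41 FPKM). Its erythrocyte and oviduct genes were also above NC F5 GCs (at most 0.190 and 0.316 FPKM) and bic F1 GCs (at most 0.439 and 0.870 FPKM). The part of these in the result was not tested. Without bic 6 mm GC replicate 2 the difference between layers was 3.03, higher in TCs, and was called (adjusted p 0.0272). Without bic 6 mm GC replicate 1 as well it was 3.01 and was not called, with 1 GC sample. In NC follicles ESR1 was 5.15, 2.85 and 4.29 FPKM in 6 mm TCs, against 1.16, 0.289 and 0.884 FPKM in 6 mm GCs. Although these levels did not overlap, the log2 fold change of the counts was only 0.24 ± 0.58 (adjusted p 0.770), where the GC counts were those of the longer transcript, as given with the exons. At F1 the NC layers lay close together for ESR1 (-0.19 ± 0.42, adjusted p 0.736).

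**Figure D2:**
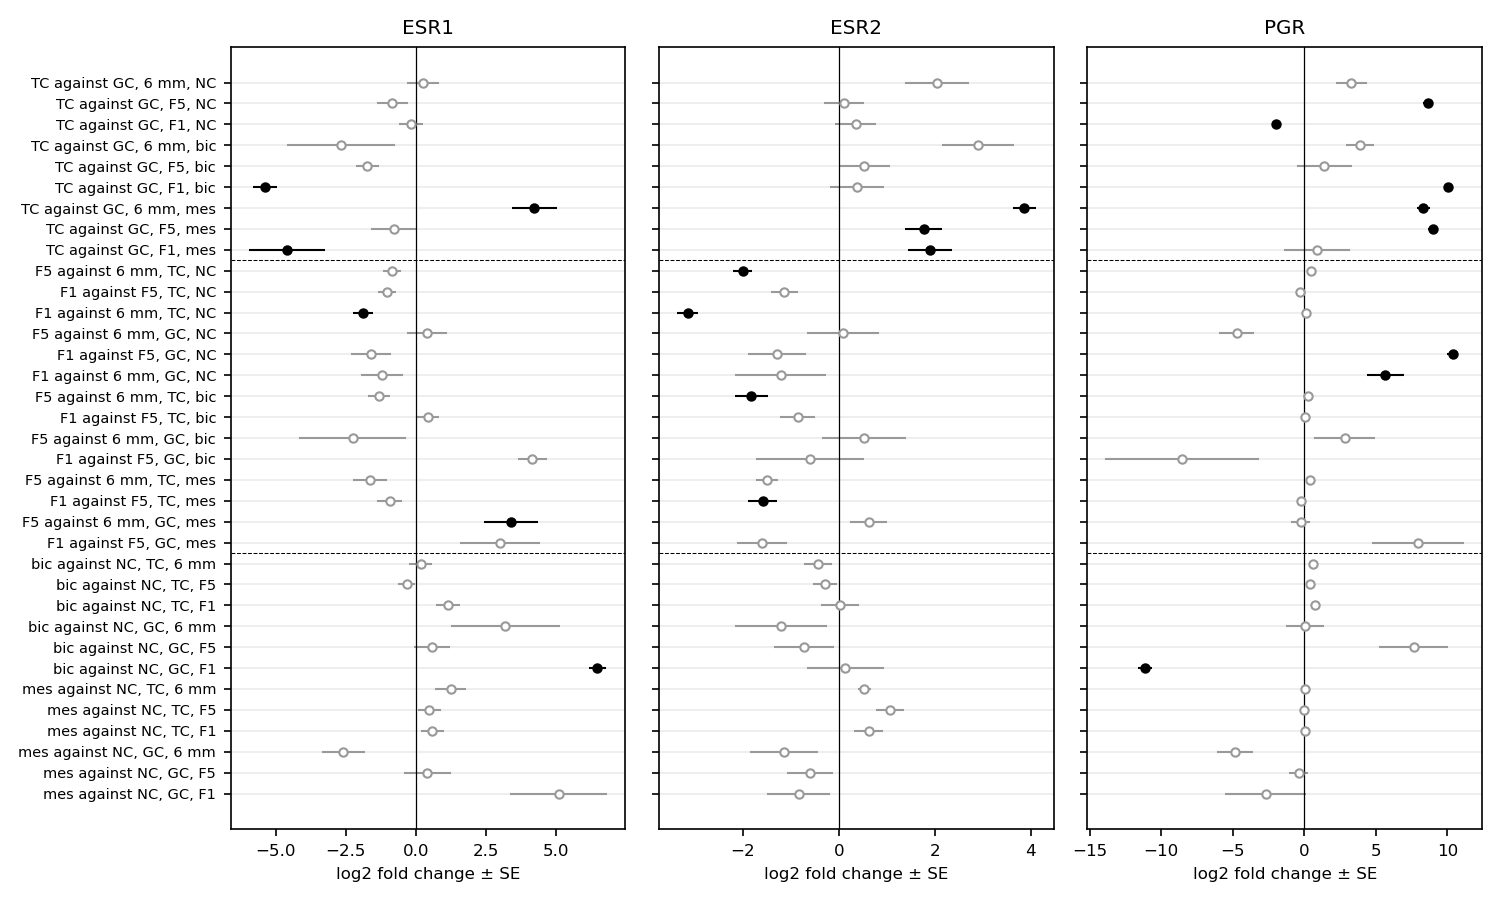
Log2 fold change with its standard error (bars) of ESR1, ESR2 and PGR in the 35 comparisons of layer, stage and treatment, each panel on its own axis. Filled black points passed the adjusted p and the FPKM limit and open grey points did not. Positive values are higher in the group named first, and the dashed lines part the layer, stage and treatment comparisons.

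The second question was how the receptors moved as the follicle grew. In NC TCs both estrogen receptors fell with growth, while PGR stayed between 19.2 and 33.6 FPKM. NC TCs had 8.89, 7.85 and 7.24 FPKM of ESR2 at 6 mm, 2.27, 1.49 and 1.65 FPKM at F5 and 0.611, 0.724 and 0.940 FPKM at F1, with no overlap between stages. ESR2 fell by 3.15 ± 0.22 on the log2 scale at F1 against 6 mm (edgeR adjusted p 0.00479), a call that held without each sample in turn (adjusted p 0.00472 to 0.0301). The step at F5 against 6 mm was -2.0 ± 0.20 and was called (adjusted p 0.0263), and that at F1 against F5 was -1.13 ± 0.27 and was not (adjusted p 0.0620). The F5 call was lost without NC 6 mm TC replicate 2 (adjusted p 0.101) or 3 (0.107), without NC F5 TC replicate 2 (0.133) or 3 (0.0849), and with hens paired (-2.02, adjusted p 0.0845). The markers of other cells moved in the same libraries. Granulosa genes averaged 95.3 to 97.9 FPKM in NC TCs at 6 mm, 165 to 614 FPKM at F5 and 214 to 1238 FPKM at F1, and erythrocyte genes 2.6 to 9.85, 8.69 to 13.6 and 18.5 to 40.4 FPKM. Granulosa genes also rose within NC GCs, at 366 to 481, 1247 to 1451 and 2223 to 2833 FPKM. Endothelium genes in NC TCs were lower at F5, at 30.6 to 38.1, 10.0 to 18.1 and 19.1 to 33.1 FPKM. So were leukocyte genes, at 95.3 to 186, 58.6 to 89.0 and 123 to 235 FPKM. Without NC F5 TC replicate 3 and NC F1 TC replicate 1, the libraries that stood apart, ESR2 differed by -3.03 at F1 against 6 mm (adjusted p 0.00472) and by -1.95 at F5 against 6 mm (adjusted p 0.0849). The part of the remaining markers in the fall was not tested. Among all genes, 7.62% were called in NC TCs at F5 against 6 mm, 6.33% at F1 against F5 and 18.4% at F1 against 6 mm.

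ESR1 in NC TCs was 5.15, 2.85 and 4.29 FPKM at 6 mm, 2.87, 1.69 and 2.08 FPKM at F5 and 0.833, 1.35 and 0.829 FPKM at F1. It fell by 1.90 ± 0.36 at F1 against 6 mm (adjusted p 0.0171), and neither single step was called (-0.85 and -1.03, adjusted p 0.126 and 0.119). The call was lost without NC 6 mm TC replicate 1 (-1.73, adjusted p 0.0582) or 3 (-1.72, 0.0735), and with all samples in a single fit (-1.90, adjusted p 0.338), and was kept without the libraries that stood apart (-1.80, adjusted p 0.0388). PGR in the same TCs averaged 23.4 ± 1.55, 29.1 ± 3.92 and 21.6 ± 2.39 FPKM at 6 mm, F5 and F1 (SD, n = 3 each). None of its steps was called, with 0.46 ± 0.12 at F5 against 6 mm, -0.31 ± 0.15 at F1 against F5 and 0.13 ± 0.14 at F1 against 6 mm (adjusted p 0.0608, 0.255 and 0.552).

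The fall of ESR2 was also measured in TCs of drug-fed hens. In bic TCs ESR2 was 7.04, 3.10 and 7.44 FPKM at 6 mm and 1.64, 1.23 and 1.60 FPKM at F5, a log2 fold change of -1.82 ± 0.34 at F5 against 6 mm (adjusted p 0.0234). That call was lost without any of 5 of the 6 libraries, all but bic 6 mm TC replicate 2 (adjusted p 0.0529 to 0.0902). In mes TCs the level was 12.7, 12.3 and 10.7 FPKM at 6 mm, 5.38, 2.85 and 3.83 FPKM at F5 and 1.61, 1.19 and 0.945 FPKM at F1. The step at F1 against F5 was -1.59 ± 0.31 and was called (adjusted p 0.0184), and that at F5 against 6 mm was -1.49 ± 0.23 and was not (adjusted p 0.133). The called step was lost without mes F1 TC replicate 2 (-1.57, adjusted p 0.0668) or 3 (-1.42, 0.0504). Neither ESR1 nor PGR was called between stages in drug-fed TCs, and ESR1 at F5 against 6 mm in bic TCs, -1.31 ± 0.40 (adjusted p 0.0722), was called only without bic 6 mm TC replicate 2 (-1.64, adjusted p 0.0291). Of all genes, 12.8% and 2.33% were called in bic TCs at F5 against 6 mm and F1 against F5, and 0.0707% and 15.1% in mes TCs.

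In GCs the largest called change between stages was that of PGR in NC hens at F1. PGR was 1.90, 0.147 and 5.20 FPKM at 6 mm, 0.0547, 0.0578 and 0.0994 FPKM at F5 and 74.8, 69.6 and 58.1 FPKM at F1. At F1 against F5 the log2 fold change was 10.37 ± 0.39 (edgeR adjusted p 5.79e-04, 2 samples against 3), and it held without each sample in turn (10.08 to 10.63, adjusted p 0.00357 to 0.00799). The F5 libraries held only 12, 17 and 24 counts of PGR, so the size of the fold is set by small counts while its direction is not. At F1 against 6 mm it was 5.68 ± 1.32 (adjusted p 0.0278), a call lost without NC 6 mm GC replicate 1 (5.45, adjusted p 0.0857), without either NC F1 sample (5.44, 0.0849, and 5.90, 0.0824) and with hens paired (7.02, 0.145). Without the 6 mm libraries that stood apart it was 9.56 (adjusted p 0.0257), with 2 F1 samples against 1 at 6 mm. The difference at F5 against 6 mm, -4.70 ± 1.22, was not called (adjusted p 0.0568), was -5.27 and called without NC 6 mm GC replicate 2 (adjusted p 0.0116), and was -0.79 without the libraries that stood apart (adjusted p 0.800, 3 samples against 1). Of all genes, 9.1%, 29.9% and 29.0% were called in NC GCs at F5 against 6 mm, F1 against F5 and F1 against 6 mm. ESR1 and ESR2 were not called between NC GC stages. Their changes at F1 against F5 were -1.61 ± 0.70 and -1.29 ± 0.60 (adjusted p 0.127 and 0.147), and that of ESR1 was called with hens paired (-2.02, adjusted p 0.0405) and without NC F5 GC replicate 1 (-2.08, adjusted p 0.0169).

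In mes GCs the receptor called between stages was ESR1. It was 0.261, 0.229 and 0.426 FPKM at 6 mm, 1.14, 3.67 and 11.2 FPKM at F5 and 23.6, 0.880 and 15.1 FPKM at F1. At F5 against 6 mm the log2 fold change was 3.39 ± 0.95 (adjusted p 0.0404), with no overlap, where 24.6% of all genes were called. Oocyte genes averaged 1.33 to 1.89 FPKM in mes F5 GCs and 26.8 to 30.2 FPKM in mes 6 mm GCs, and their part in the difference was not tested. The call was lost without any of 5 of the 6 libraries, all but mes F5 GC replicate 1 (adjusted p 0.0543 to 0.133). ESR1 levels were also higher at F5 in NC GCs, with 1.28, 5.16 and 5.23 FPKM against 1.16, 0.289 and 0.884 FPKM at 6 mm. The change of the NC counts was 0.40 ± 0.72 and was not called (edgeR adjusted p 0.753). Over the exons shared by the transcripts, NC GCs averaged 0.162 ± 0.144 FPKM at 6 mm and 3.94 ± 2.60 FPKM at F5. Mes GCs averaged 0.232 ± 0.169 and 5.68 ± 5.51 FPKM at those stages (SD, n = 3 each). In mes GCs at F1 against F5, where 18.2% of genes were called, ESR1 differed by 2.98 ± 1.43 and PGR by 7.97 ± 3.20, neither called (adjusted p 0.174 and 0.120). The library that parted from its group was mes F1 GC replicate 2, which had 0.880 FPKM of ESR1 and 33.3 FPKM of PGR where the others had 23.6 and 15.1 FPKM of ESR1 and 0 and 0.0147 FPKM of PGR. Without it ESR1 was called at F1 against F5 (3.56, adjusted p 0.0459), and PGR turned in sign and was not called (-2.57, adjusted p 0.220). The library was picked out by these same levels, so both results are a description.

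In bic GCs no gene was called between stages (0.0% at F5 against 6 mm and 0.0% at F1 against F5), although edgeR gave 652 and 1061 genes an unadjusted p below 0.05 and DESeq2 called 147 and 1296 genes. ESR1 in bic GCs was 3.55, 4.28 and 5.75 FPKM at F5 and 24.1, 24.8 and 25.1 FPKM at F1, a log2 fold change of 4.14 ± 0.51 at F1 against F5 (adjusted p 0.593). Without bic F5 GC replicate 2, the library with the theca genes, it was 4.41 (adjusted p 0.0275), which sets 1 hen at F1 against 2 samples at F5, with the spread taken from the F5 samples.

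The difference between layers in how PGR changed with stage was tested in NC follicles. From F5 on, the layers parted: the change at F1 against F5 in TCs minus that in GCs was -10.65 ± 0.40 for PGR (edgeR adjusted p 5.04e-06), where 19.3% of all genes were called. For F5 against 6 mm it was 5.29 ± 1.21 (adjusted p 0.0244, background 9.57%), but 1.32 without the libraries that stood apart (adjusted p 0.134). The F5 call was also lost without any single NC 6 mm TC library, NC F5 GC replicate 2 or 3, or NC F5 TC replicate 2 (5.19 to 5.58, adjusted p 0.0542 to 0.0693). Neither estrogen receptor was called in these 2 tests, with -1.11 ± 0.85 and 0.62 ± 0.76 for ESR1 and -1.96 ± 0.83 and 0.19 ± 0.60 for ESR2 at F5 against 6 mm and F1 against F5. ESR2 at F5 against 6 mm was called without NC 6 mm GC replicate 1 (-3.12, adjusted p 0.0131). Without the libraries that stood apart it was -3.19 and was not called, with 1 GC sample at 6 mm.

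The third question was whether the drugs went with a change of the receptors. The only comparison of treatments in which edgeR called a receptor was that of F1 GCs, where a single bic hen was set against 2 NC samples. It does not show how bic hens as a group differ. ESR1 was 24.1, 24.8 and 25.1 FPKM in bic F1 GCs, against 0.296, 0.352 and 0.874 FPKM in NC F1 GCs. PGR was 0.0435, 0.0286 and 0.0168 FPKM in bic F1 GCs, against 74.8, 69.6 and 58.1 FPKM in NC F1 GCs. ESR1 was thus high where PGR was near 0, and PGR high where ESR1 was low. The log2 fold changes were 6.46 ± 0.30 for ESR1 and -11.14 ± 0.50 for PGR, both with an edgeR adjusted p of 0.0497, where 1.17% of all genes were called. The spread came from the NC samples alone, since that between bic hens was not measured, and the PGR fold rests on 4 to 15 counts per bic library. The ESR1 call was lost when counted over the exons shared by its transcripts, as given with the exons.

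Mes F1 GCs were split. Replicates 1 and 3 had 23.6 and 15.1 FPKM of ESR1 and 0 and 0.0147 FPKM of PGR, much like the bic hen, and replicate 2 had 0.880 FPKM of ESR1 and 33.3 FPKM of PGR, nearer to the NC hens. Against NC, ESR1 differed by 5.08 ± 1.73 and PGR by -2.69 ± 2.82, neither called (adjusted p 0.206 and 0.605). Without replicate 2 the values were 5.64 and -13.20, both called (adjusted p 0.0137 and 0.0161), the second against libraries with 0 and 4 counts of PGR. Replicate 2 is singled out by the ESR1 and PGR levels under test, so these calls are a description and no separate support.

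Of 3 other genes that change late in the growth of the follicle, STAR followed the split of the mes F1 GCs, and LHCGR did not. STAR, which brings cholesterol into the mitochondrion for progesterone synthesis, was at 460 to 485 FPKM in bic F1 GCs and at 195, 3225 and 842 FPKM in mes F1 GC replicates 1 to 3, against 3563 to 4061 FPKM in NC F1 GCs and 43.1 to 75.2 FPKM in NC F5 GCs. The mes library with PGR was the mes library with STAR near the NC level. CYP17A1, the enzyme that makes androgens, was at 835 to 967 FPKM in bic F1 TCs and 3.64 to 6.71 FPKM in mes F1 TCs, against 14.4 to 27.0 FPKM in NC F1 TCs and 563 to 954 FPKM in NC F5 TCs. Its F1 values thus lay above those of NC with bic and below them with mes. Neither difference was called in edgeR, with 5.39 ± 0.31 for bic (adjusted p 0.0513, 2 samples against 3). LHCGR, the LH receptor, named here after its values were seen, was at 448 to 465 FPKM in bic F1 GCs and 433 to 566 FPKM in mes F1 GCs, against 254 to 346 FPKM in NC F1 GCs and 32.7 to 73.8 FPKM in NC F5 GCs. All 3 mes libraries thus lay above the NC F1 GCs, also the one with PGR. Whether the F1 follicles of the treated hens had come as far as those of NC hens when they were collected was not tested.

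**Figure D3:**
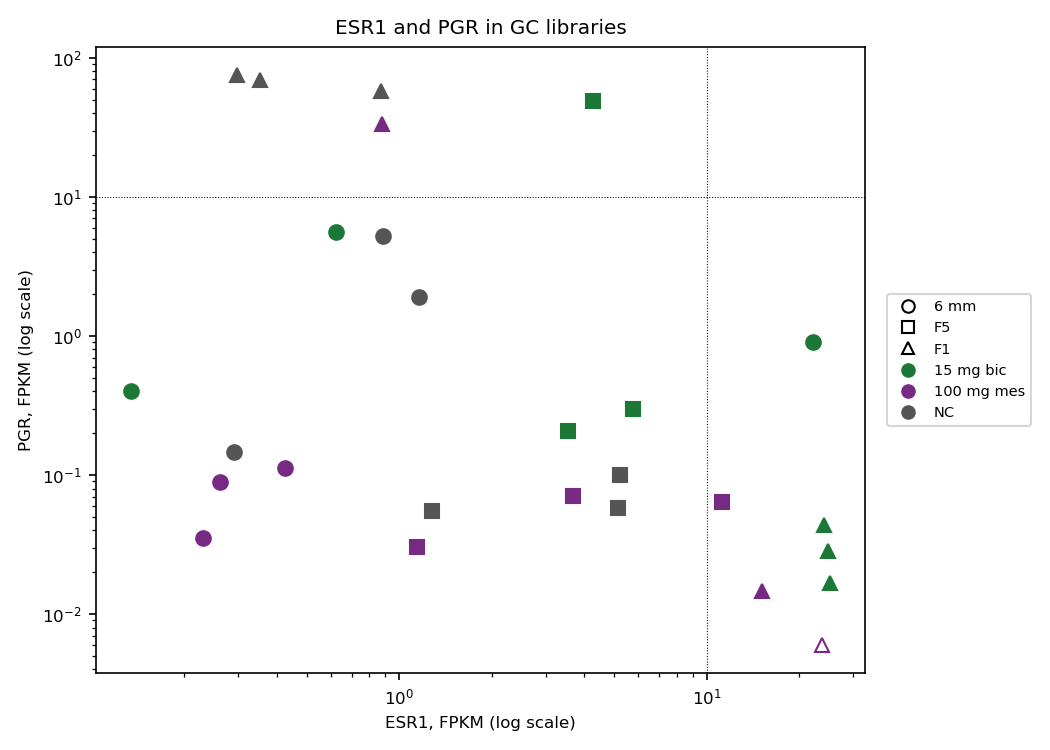
FPKM of PGR against FPKM of ESR1 in the 27 GC libraries, both on log scales, with the follicle stage as the shape and the treatment as the colour. The dotted lines mark 10 FPKM and the open symbol stands for a PGR level of 0. No library lies above 10 FPKM for both genes, 7 lie above it for ESR1 alone and 5 for PGR alone.

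High ESR1 and high PGR were not found together in a GC library. At a limit of 10 FPKM, 0 of 27 GC libraries passed for both, 7 for ESR1 alone, 5 for PGR alone and 15 for neither. The 7 with ESR1 were the 3 bic F1 libraries of 1 hen, mes F1 replicates 1 and 3, mes F5 replicate 3 and bic 6 mm replicate 2. The 5 with PGR were the 3 NC F1 libraries, mes F1 replicate 2 and bic F5 replicate 2, the last with theca genes at 1064 FPKM. In TCs all 27 libraries passed for PGR alone. The limit was set after seeing the values, and the libraries of a hen are not independent, so this is a description.

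In TCs no receptor was called for either drug. Of all genes, 0.0296%, 0.0% and 0.0% were called for bic against NC in TCs at 6 mm, F5 and F1, and 0.0354%, 0.0122% and 0.0% for mes against NC. In GCs the shares were 0.0% at 6 mm and 0.0% at F5 for bic, and 0.0%, 0.0% and 0.0% for mes at the 3 stages. In the 8 comparisons of treatments without a called gene, 483 to 3856 genes had a raw p below 0.05 in edgeR, and 32 to 2437 genes passed in DESeq2. In bic TCs the PGR values lay above those of NC TCs at 6 mm and F1. PGR was 36.1, 32.1 and 34.6 FPKM in bic 6 mm TCs, against 23.3, 21.9 and 25.0 FPKM in NC 6 mm TCs, and 37.8, 37.9 and 42.5 FPKM in bic F1 TCs, against 21.6, 19.2 and 24.0 FPKM in NC F1 TCs. At F5 they overlapped, with 23.2, 45.2 and 46.4 FPKM in bic TCs against 33.6, 27.4 and 26.4 FPKM in NC TCs. At 6 mm and F1 the log2 fold changes of 0.59 ± 0.11 and 0.78 ± 0.16 missed the threshold in edgeR (adjusted p 0.863 and 0.410) and were called by DESeq2 (adjusted p 0.00160 and 0.00132). DESeq2 called 45 of 16920 genes in that 6 mm comparison and 504 of 16833 in that at F1. ESR2 was 5.38, 2.85 and 3.83 FPKM in mes F5 TCs, against 2.27, 1.49 and 1.65 FPKM in NC F5 TCs, and its log2 fold change of 1.07 ± 0.29 was likewise called by DESeq2 alone (adjusted p 0.0227, and 0.403 in edgeR). There DESeq2 called 432 of 16460 genes.

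In GCs at 6 mm, every PGR value of mes hens lay below those of NC hens, with 0.0895, 0.0350 and 0.112 FPKM of PGR in mes GCs against 1.90, 0.147 and 5.20 FPKM in NC GCs. The log2 fold changes were -4.83 ± 1.25 for PGR and -2.59 ± 0.77 for ESR1, not called (adjusted p 0.143 and 0.147). They were called without NC 6 mm GC replicate 2 (-5.34, adjusted p 0.00924, and -2.94, adjusted p 0.0340), which leaves only the NC libraries with theca genes at 214 and 294 FPKM. Without those libraries instead, they were -0.88 and -1.20 (adjusted p 0.719 and 0.584). Single bic libraries set the values of bic against NC in GCs at the earlier stages. PGR at F5 differed by 7.65 ± 2.40 (adjusted p 0.513), and by 1.81 (adjusted p 0.350) without bic F5 GC replicate 2, and ESR1 at 6 mm by 3.18 ± 1.95 (adjusted p 0.785), and by -2.52 (adjusted p 0.753) without bic 6 mm GC replicate 2.

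The interactions of treatment with stage called no receptor in 24 tests. The shares of all genes called for bic minus NC were 0.0% at F5 against 6 mm and 0.0224% at F1 against F5 in TCs, and 0.0% and 0.688% in GCs. For mes minus NC they were 0.0% and 0.0% in TCs and 0.0% and 0.498% in GCs. In the 5 tests without a called gene, 374 to 1577 genes had a raw p below 0.05, and 25 to 409 genes passed in DESeq2. The smallest adjusted p was that of ESR1 in GCs, whose change at F1 against F5 was greater in bic than in NC by 5.86 ± 0.97 (adjusted p 0.0507). Without bic F5 GC replicate 2 it was 6.20 and that of PGR -12.96, with adjusted p of 0.0178 and 0.00327. The F1 GCs of bic are 1 hen in these tests, so they do not measure the spread between bic hens. For mes minus NC without mes F1 GC replicate 2, the same tests gave 5.21 for ESR1 and -12.86 for PGR, both called (adjusted p 0.0382 and 4.13e-04), against 4.64 and -2.36 with it (adjusted p 0.236 and 0.738). Since that library was picked out by its ESR1 and PGR, these calls are a description. At F5 against 6 mm in GCs, PGR for mes minus NC was 4.50 ± 1.36 (adjusted p 0.391) and was called without NC 6 mm GC replicate 2 (4.94, adjusted p 0.0402).

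The reads of a gene need not cover all of its exons, so the levels of single exons were compared as a description. PGR was covered along its whole length wherever it was high, at 45.0 to 104 FPKM over its 8 exons in NC F1 GCs and 18.9 to 25.9 FPKM in NC F1 TCs. ESR2 was covered throughout in TCs and in its 3′ part in GCs. In NC 6 mm TCs exons 1 to 4 were at 3.50 to 7.28 FPKM and exons 5 to 9 at 6.62 to 9.07 FPKM. In NC 6 mm GCs exons 1 to 4 were at 0 to 0.241 FPKM and exons 5 to 9 at 1.17 to 2.83 FPKM, and in NC F5 GCs they were at 0 to 0.192 FPKM and 1.46 to 2.66 FPKM. The same split was seen in all but 1 of the GC libraries. Weighted by length, the level of exons 1 to 4 was 0% to 30.6% of that of exons 5 to 9 in 26 of the 27 GC libraries, with a median of 10.3% over all 27, against 26.7% to 153% with a median of 67.4% in TCs. The remaining GC library, bic F5 GC replicate 2, was at 99.9%, and it is the one whose theca genes were at the level of a TC library. The ESR2 counts of GCs therefore stem mostly from exons 5 to 9, and the annotation holds no transcript that starts there.

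**Figure D4:**
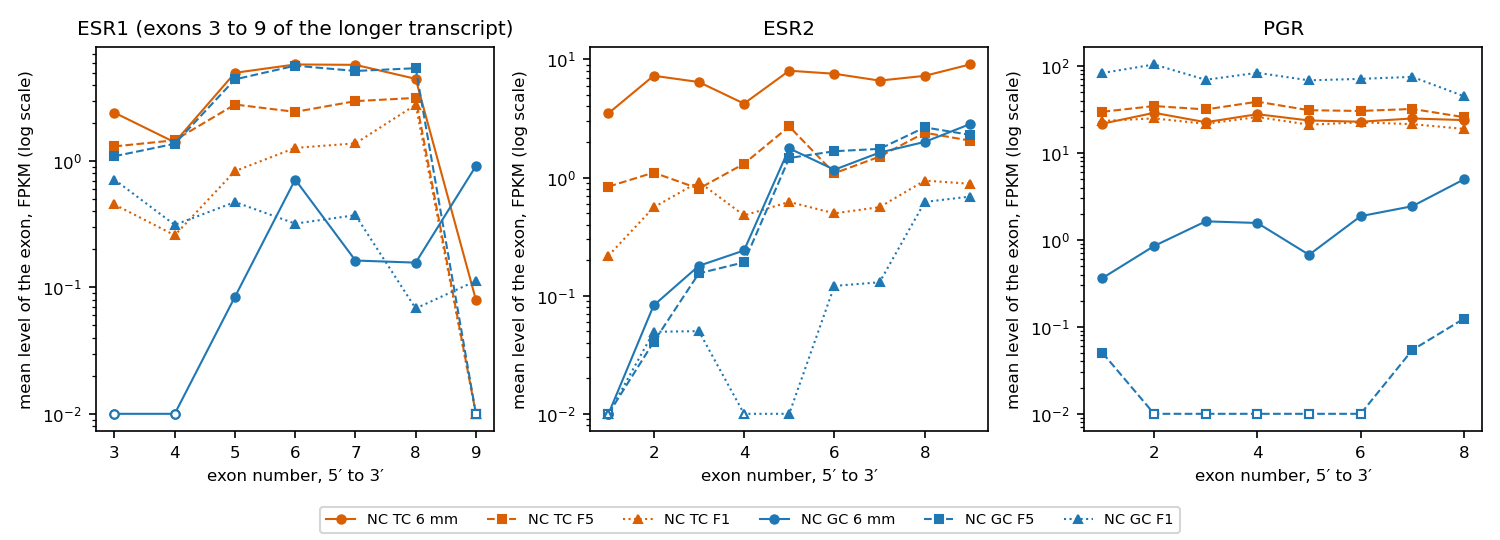
Mean FPKM of single exons of ESR1, ESR2 and PGR in the NC groups, on log scales, against the exon number from 5′ to 3′, with TCs in orange and GCs in blue. ESR1 is shown for exons 3 to 8 of the longer transcript, summed over both transcripts that share them, and for its last exon 9, and open symbols on the lower edge stand for 0. ESR2 exons 1 to 4 lie at 3.50 to 7.28 FPKM in 6 mm TCs and at 0 to 0.241 FPKM in 6 mm GCs.

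For ESR1 the split of reads between the transcripts bears on the calls. Counted over the shared exons, 1 of the 45 results lost its call, 2 gained one and 8 that were not called turned in sign. In NC 6 mm GCs the gene level of 1.16, 0.289 and 0.884 FPKM was assigned wholly to the longer transcript, and its last exon, at 1.37, 0.348 and 1.03 FPKM, carried most of it. The 6 shared exons were at 0.208, 0 and 0.278 FPKM there. In NC 6 mm TCs the shared exons averaged 4.27 ± 1.08 FPKM (SD, n = 3), so that over the shared exons alone ESR1 was higher in TCs than in GCs by 4.61 on the log2 scale and was called (adjusted p 0.0385), against 0.24 for the whole gene. The TC minus GC difference in the change at F5 against 6 mm was then -5.37 and was called as well (adjusted p 0.0416). In bic F1 GCs the shared exons were high, at 23.3 to 31.3 FPKM each, and the last exon of the longer transcript was at 15.9 FPKM, so both parts of ESR1 were present. There the difference from NC F1 GCs over the shared exons was 5.71, which just missed the threshold (adjusted p 0.0678). Counting over shared exons was added after seeing the data.

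The surroundings of the receptors were described by 8 gene lists, each by how many members were called. The counts are given for selected comparisons, for which no rule was set, so they are a description. Steroids also act through receptors at the membrane. Of 7 such genes tested, 3 were higher and 0 lower in NC TCs against GCs at F5, with a median log2 fold change of 2.68, against -0.00 over all genes, of which 20.1% were higher and 15.9% lower. PAQR7, a membrane progestin receptor, was at 8.65 ± 0.947 FPKM in TCs and 1.26 ± 0.414 FPKM in GCs (2.68 ± 0.36, adjusted p 0.00184), and PAQR8, of the same family, was higher in TCs by 1.49 ± 0.18 at 6 mm (adjusted p 0.00409). PGRMC1, a progesterone-binding membrane protein, rose in NC GCs to 651 ± 130 FPKM at F1 (n = 2), against 93.3 ± 33.0 FPKM at 6 mm (n = 3), a log2 fold change of 3.66 ± 0.40 (adjusted p 0.00408). In TCs PAQR5, a further membrane progestin receptor, rose at F1 against F5 by 1.57 ± 0.20 (adjusted p 0.0154). At F1 the granulosa of NC hens was thus high in both PGR and PGRMC1.

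Of the related nuclear receptors, NR3C2, the mineralocorticoid receptor, fell in NC GCs to 0.676 ± 0.0531 FPKM at F1 (n = 2), against 9.62 ± 0.822 FPKM at 6 mm (n = 3), by 2.87 ± 0.26 on the log2 scale (adjusted p 0.00298). NR3C1, the glucocorticoid receptor, rose by 1.27 ± 0.22 in the same comparison (adjusted p 0.0122). Of the 4 genes of this list tested there, 1 rose and 1 fell, where 15.3% of all genes rose and 13.7% fell. Nuclear receptors act through coactivators and corepressors. Of 9 coactivators tested in NC GCs at F1 against F5, 1 rose and 3 fell, among them NCOA2 with -2.29 ± 0.33 (adjusted p 0.00536), and the median was 0.02, against -0.07 over all genes, of which 15.2% rose and 14.7% fell. Of 6 corepressors, 0 were higher and 3 lower in NC TCs against GCs at F5, where 20.1% of all genes were higher and 15.9% lower, with BCOR at -1.27 ± 0.21 (adjusted p 0.00392). Steroid receptors are held ready by chaperones, of which 4 of 7 rose and 0 fell in NC GCs at F1 against 6 mm, beside 15.3% and 13.7% of all genes. FKBP5, a co-chaperone, rose to 692 ± 35.8 FPKM at F1 (n = 2), against 275 ± 60.7 FPKM at F5 (n = 3), by 1.88 ± 0.26 (adjusted p 0.00468). HSP90AB1, a chaperone of the same list, fell in NC TCs at F1 against F5. It was at 10.4 ± 2.30 FPKM against 32.7 ± 5.78 FPKM (n = 3 each), a log2 fold change of -1.53 ± 0.22 (edgeR adjusted p 0.0202).

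A further list held genes known in mouse granulosa cells as targets or partners of PGR. Of the 11 tested in NC GCs at F1 against F5, 4 rose and 1 fell. The median was 1.19, against -0.07 over all genes, of which 15.2% rose and 14.7% fell. EPAS1, a hypoxia-response transcription factor, rose by 9.46 ± 0.65 (adjusted p 9.75e-04), and ZBTB16, a zinc-finger transcription factor, rose at F1 against 6 mm by 4.05 ± 0.27 (adjusted p 0.00251). EPAS1 was at 45.5 to 49.1 FPKM in bic F1 GCs, where PGR was at 0.0168 to 0.0435 FPKM, and at 110 to 228 FPKM in NC F1 GCs, where PGR was at 58.1 to 74.8 FPKM. It was thus present in F1 GCs with and without PGR. At F5, PGR was higher in NC TCs than in GCs. There 3 of the 11 genes of this list were higher and 2 lower in TCs, beside 20.1% and 15.9% of all genes. The 2 members with the smallest p between NC layers were EPAS1, higher by 7.44 ± 0.47, and SLCO2A1, a prostaglandin transporter, higher by 9.63 ± 1.01 (adjusted p 1.42e-04 and 7.40e-04). Endothelium genes averaged 10.0 to 18.1 FPKM in NC F5 TCs and 0.741 to 1.76 FPKM in NC F5 GCs. Their part in these differences was not tested. Of 7 estrogen targets, a list that holds PGR itself, 0 rose and 2 fell in NC TCs at F1 against 6 mm, where 8.08% of all genes rose and 10.3% fell. GREB1, a growth regulator downstream of ESR1, fell by 2.03 ± 0.18 there (adjusted p 0.00534), in the comparison in which ESR1 and ESR2 fell as well.

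Of 9 enzymes that make the ligands, 5 were higher and 1 lower in NC TCs against GCs at F5, where 20.1% of all genes were higher and 15.9% lower. CYP19A1, the aromatase that makes estradiol, was at 112 ± 48.7 FPKM in F5 TCs and 0.0137 ± 0.0237 FPKM in F5 GCs (n = 3 each), and CYP17A1 was higher in TCs by 9.45 ± 0.63 (adjusted p 1.61e-04). CYP19A1 fell in NC TCs to 2.63 ± 0.305 FPKM at F1, against 441 ± 186 FPKM at 6 mm, by 7.24 ± 0.35 on the log2 scale (adjusted p 0.00291), in the same libraries in which ESR1 and ESR2 fell. STAR rose in NC GCs by 6.47 ± 0.35 at F1 against F5 (adjusted p 7.22e-04), the comparison in which PGR rose. In the comparison of treatments with called receptors, bic against NC in F1 GCs, STAR had a log2 fold change of -3.20 ± 0.21 (adjusted p 0.0497, 1 hen against 2 samples), and among all 8 lists only STAR and PGR itself were called.

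The genes most like each receptor over the 18 group means of log2(FPKM + 1) were ranked by Pearson r, as a description, since groups share hens and layers differ in many genes. For PGR they were RBPMS, an RNA-binding protein (r = 0.972), SDPR, a caveola protein (0.959), TGFBR2, a receptor for transforming growth factor beta (0.957), ACSF2 (0.951) and ACTN1, an actin crosslinker (0.949). Within the 9 GC means alone these 5 had r of 0.909 to 0.984, and within the 9 TC means, where PGR varied little, -0.35 to 0.52. The genes of this ranking were chosen by group means that include the F1 GCs, so their values there are a description. Among the F1 GC libraries TGFBR2 was highest in those with PGR. It was at 0.0498 to 0.125 FPKM in bic F1 GCs and at 0.673, 8.44 and 0.0798 FPKM in mes F1 GC replicates 1 to 3, against 19.9 to 21.6 FPKM in NC F1 GCs. For ESR1 they were PARD3, a cell polarity protein (0.915), LOC107055444 (0.892), SUB1L2 (0.892), KNDC1 (0.884) and SOS1, an activator of Ras (0.879). PARD3 was at 35.3 to 36.3 FPKM in bic F1 GCs and at 39.0, 13.3 and 30.5 FPKM in mes F1 GC replicates 1 to 3, against 7.32 to 9.69 FPKM in NC F1 GCs, so that it too was low in the mes library with PGR. For ESR2 they were RAD21L1, a meiotic cohesin subunit (0.954), FZD5, a Wnt receptor (0.952), GYG2, a starter of glycogen synthesis (0.952), CSRNP3 (0.950) and LOC107054027 (0.940), with r of 0.946 to 0.989 within the 9 TC means.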

How the data were processed

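The authors trimmed paired reads of 150 bp with Cutadapt, aligned them with HISAT2 2.1.0 to Gallus_gallus-5.0, removed duplicates with Samtools, and used StringTie 1.3.4d with the NCBI annotation (their processing notes also list DESeq2 1.26.0). The deposited counts per gene are coverage times length over 75 bases, rounded up, a rule that held for 162 of 162 receptor values (largest difference 0), so a read pair can add up to 4 counts. FPKM came from the deposited transcript files and was summed per gene. Of the counted genes, 5 had no symbol and held at most 0.605% of the counts. They were not removed before the tests, and only the ranking by likeness and the gene lists, which go by symbol, left them out.

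Libraries of 1 hen and library number were summed: such pairs differed by a chi-square of 1.16 to 1.44 per degree of freedom, after division by 4, against 2.78 to 13.4 in the other 49 pairs. Each of 45 comparisons (9 of layer, 14 of stage, 12 of treatment, 10 interactions) was fitted on its own groups with edgeR 4.0.16 (TMM, filterByExpr, quasi-likelihood F test) in R 4.3.3, which gives 135 tests of the receptors. A check on simulated counts covered only some of these comparisons, none of them with bic or with a single sample in a group. P-values measure the spread between the hens or follicles sampled. Figures used Python 3.11.15 and matplotlib 3.10.9.

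Hen numbers in the names of the files pair the samples, since by the study's supplement the layers and stages of a treatment came from the same numbered hens. Deviations of same-numbered samples correlated with a median r of 0.118 between layers (8 comparisons) and 0.184 between stages (16 comparisons) over 15535 genes. Alternatives were other size factors (RLE), DESeq2 1.42.0, no low-count filter, all samples in a single fit, all libraries as labelled, a hen block, an added limit of 1.5 on the absolute log2 fold change and leaving out each sample. ESR1 over shared exons and leaving out the 8 libraries that stood apart were chosen after seeing the data.

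The members and the gene lists were chosen with earlier results of these data known. Besides the 3 receptors, the text names the 5 genes most like each receptor, members of each list with the smallest p in a family of comparisons, and layer markers. Of the lists, ESRRA, CARM1, NRIP1, STIP1, CDC37, CTSL, CTSD, TFF1 and HSD3B1 had no single locus and were left out.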

Additional observations from a re-analysis of the deposited data

Results flagged for a closer look

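In NC follicles the change of PGR with stage differed between the layers by a test of the difference itself, in both steps. At F1 against F5 the change in TCs minus that in GCs was -10.65 on the log2 scale (edgeR adjusted p 5.04e-06), with 21.6, 19.2 and 24.0 FPKM in F1 TCs and 33.6, 27.4 and 26.4 FPKM in F5 TCs, and with 74.8, 69.6 and 58.1 FPKM in F1 GCs and 0.0547, 0.0578 and 0.0994 FPKM in F5 GCs. It was called without each sample in turn (-10.95 to -10.45, adjusted p 1.62e-05 to 1.28e-04) and without the libraries that stood apart (-10.76, adjusted p 3.05e-04).

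At F5 against 6 mm the same difference was 5.29 (edgeR adjusted p 0.0244). It was 1.32 (adjusted p 0.134) without the libraries that stood apart, among them the 6 mm GC libraries with 1.90 and 5.20 FPKM of PGR and theca genes at 294 and 214 FPKM, where replicate 2 had 0.147 and 15.8 FPKM. The part of those theca genes in the result was not tested. Single samples were not tested as outliers, since the test used for them takes groups of at least 4 samples and all groups hold at most 3.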

How the results depend on the processing

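Of 1914 refitted results of ESR1, ESR2 and PGR, 1706 kept their direction and their side of the threshold. Most tests were not called to begin with, so most of these stayed uncalled, and the tally says little about the calls. Of the others, 47 lost a call, 35 of them among the 906 fits that left out a sample. A further 71 gained a call, 89 were uncalled and turned in sign, and 1 was called with the other sign. That one was ESR1 in TCs against GCs of bic 6 mm follicles, which ranged from -3.25 to 3.03 when a sample was left out and was 3.03 without bic 6 mm GC replicate 2. Over all families, DESeq2 added 25 calls among 135 results and ended 0. Between layers, 11 of 27 tests were called, and 8 to 13 without a sample. With 15 of these tests refitted without the libraries that stood apart, 8 were called, where 2 of the same 15 were called before; those at 6 mm then rest on a single GC sample. Between stages, 8 of 42 were called, 6 to 9 without a sample, and 19 with DESeq2. Between treatments, 2 of 36 were called, 7 with DESeq2, 4 with all samples in a single fit, 1 with ESR1 over shared exons, and 2 to 4 without a sample. For the layer by stage interaction, 2 of 6 were called, 1 without the libraries that stood apart, and 1 to 3 without a sample. For the treatment by stage interaction, 0 of 24 were called by edgeR, 4 with DESeq2, 2 with all libraries as labelled, 2 without the libraries that stood apart, and 0 to 2 without a sample. The cause of these differences was not tested.

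With hens paired as a replicate block, 8 of 24 layer tests were called (9 without it) and 7 of 39 stage tests (8 without it). For the treatment tests the block was the hen number alone, which different birds of each treatment share. It therefore paired no hens there, and 0 of 33 were called (0 without it). The block ended 3 calls and added 1, each given beside its result, and changed no other call. RLE factors, no low-count filter and the added fold limit changed no call. Of the 15 genes named as most like a receptor over 18 group means, 10 were named with a pseudocount of 0.1, 1 over the 9 TC means alone and 3 over the 9 GC means alone. With TPM in place of FPKM, 46 of 54 ranks of group means were kept. Levels of PGR in GCs near 0 rest on 0 to 32 counts in each library of mes 6 mm, mes F5, NC F5 and bic F1 and in mes F1 replicates 1 and 3, which limits the size of every fold against them.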
